A study of Mus musculus with 9 samples.

Results

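The 32 genes described here belong to the unfolded protein response and to the protein folding machinery of the endoplasmic reticulum (ER). They were taken by symbol, and 31 of them had a row among the 20239 named genes of the array table. Sec61b, which encodes a subunit of the translocation channel, was not listed in the platform annotation and is not analysed here. All 31 passed the filter on low values and were among the 12597 genes tested. Expression was measured on 9 arrays of whole hearts from male C57BL/6 mice, 3 mice per group. All mice received an adeno-associated virus at 8 weeks of age, with its cargo under a myosin light chain (MLC) promoter. The TAC-HDAC4-NT hearts received amino acids 1 to 201 of histone deacetylase 4 (HDAC4) and then transverse aortic constriction (TAC), an operation that narrows the aorta and loads the left ventricle with pressure. The TAC-luciferase hearts received luciferase as control cargo and TAC. The sham-luciferase hearts received luciferase and a sham operation. Surgery followed the virus by 4 weeks, and hearts were collected 4 weeks after surgery. HDAC4-NT was not given to a sham group in these samples.

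Secreted and membrane proteins enter the ER, where chaperones such as Hspa5 bind them, protein disulfide isomerases form their disulfide bonds, and glycan-reading lectins hold them until they are folded. Proteins that fail are passed back to the cytosol and destroyed, a process called ER-associated degradation (ERAD). When unfolded proteins accumulate, the sensors Atf6, Ern1 (IRE1) and Eif2ak3 (PERK) raise the transcription of chaperone and ERAD genes and slow translation. In cardiac myocytes this response is known to be engaged by pressure load and ischaemia, and the ER lies beside the sarcoplasmic reticulum that cycles calcium for contraction.

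Values are log2 expression after RMA (robust multi-array average) normalization. They compare the same gene between hearts, not one gene with another. A gene was called changed when limma's moderated test gave a Benjamini-Hochberg adjusted p under 0.05 over all genes tested, and "rose" and "fell" are used only of such genes. The 6 cardiomyocyte markers averaged 13.09 to 13.10 in the TAC-HDAC4-NT hearts, 13.06 to 13.13 in the TAC-luciferase hearts and 13.08 to 13.24 in the sham hearts. Of these markers Myh6 fell in TAC-luciferase hearts against sham (-0.23, SE 0.06, adjusted p 0.0271). The call was lost without TAC-luciferase heart 2 or 3 or sham heart 2 or 3 (adjusted p up to 0.095). Against sham, 5 of 6 had log2 fold changes below 0 in TAC-luciferase and in TAC-HDAC4-NT hearts, as did 6738 and 6766 of 12597 genes tested. Actc1 stood at 14.11 in every heart but sham heart 1 (13.82), so it could say little about differences between hearts. The part of these markers in the falls below was not tested. Across genes, which are not independent replicates, the profile of TAC-luciferase heart 1 had a Pearson r of 0.991 to 0.992 with the TAC-HDAC4-NT hearts and 0.986 to 0.987 with hearts 2 and 3 of its own group, so results that turn on it are given with and without it. The mean of 5 atrial genes, Nppa among them, was also uneven, at 7.42 to 8.23, 7.43 to 9.08 and 7.34 to 8.22 in the 3 groups, and was highest in TAC-luciferase heart 3. Nppa itself rose in both TAC groups against sham, with group means of 13.32, 13.15 and 11.12, and so lifts the atrial mean of the TAC hearts.

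Many of these genes are known to be switched on through short promoter elements that Atf6 and Xbp1 bind together with NF-Y. These elements are described here, and their part in the results below was not tested. The ER stress response element (ERSE) is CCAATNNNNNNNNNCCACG and its shorter form ERSE-II is ATTGGNCCACG. RefSeq promoter windows of 300 bases (250 before the gene's start and 50 after it, build GRCm38.p6) were given for 28 of the 32 genes, 27 of them measured. An exact ERSE on either strand lay in the windows of 9 of the 28 genes, against 37 of all 27025 genes (0.119% of all 32851 windows). An ERSE-II lay in those of Herpud1 and Dnajb11, against 12 of all genes (0.0365% of all windows). The UPRE core TGACGTGG was in none of the 28, against 193 of all genes (0.676% of windows). The ATF4-type element TGATGNAA was in 1, Herpud1, against 1219 of all genes (3.97% of windows). None of these elements overlapped another in the windows of the 28 genes. A match is a description of the letters and does not show that a factor binds there.

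The 250 bases before the start are printed for 4 genes, 5′ to 3′ on the gene's own strand, with the fixed letters of ERSE and ERSE-II in capitals. Hspa5 lies on the plus strand at chr2:34771840-34772089, Hsp90b1 on the minus strand at chr10:86705445-86705694, Herpud1 on the plus strand at chr8:94386179-94386428 and Ero1a on the minus strand at chr14:45318573-45318822. The first 3 fell in both TAC groups against sham. Ero1a, whose window held none of the 4 elements, rose in TAC-luciferase hearts and did not pass in TAC-HDAC4-NT hearts. Genes whose windows held neither ERSE nor ERSE-II also fell, Dnajb9 among them.
Hspa5: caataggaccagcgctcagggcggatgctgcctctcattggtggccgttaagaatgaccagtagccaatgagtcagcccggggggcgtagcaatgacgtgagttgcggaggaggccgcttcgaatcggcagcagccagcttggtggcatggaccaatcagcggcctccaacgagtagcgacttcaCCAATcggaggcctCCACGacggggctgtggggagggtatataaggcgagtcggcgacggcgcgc
Hsp90b1: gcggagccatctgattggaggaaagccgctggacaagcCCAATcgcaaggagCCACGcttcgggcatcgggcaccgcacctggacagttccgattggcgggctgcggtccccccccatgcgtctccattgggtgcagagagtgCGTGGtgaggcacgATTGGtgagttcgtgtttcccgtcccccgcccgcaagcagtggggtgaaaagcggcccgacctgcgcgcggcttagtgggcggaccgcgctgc
Herpud1: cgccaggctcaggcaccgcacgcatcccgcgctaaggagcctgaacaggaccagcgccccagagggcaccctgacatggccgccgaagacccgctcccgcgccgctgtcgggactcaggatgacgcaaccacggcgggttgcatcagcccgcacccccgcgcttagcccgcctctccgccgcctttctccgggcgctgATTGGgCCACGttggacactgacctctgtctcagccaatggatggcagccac
Ero1a: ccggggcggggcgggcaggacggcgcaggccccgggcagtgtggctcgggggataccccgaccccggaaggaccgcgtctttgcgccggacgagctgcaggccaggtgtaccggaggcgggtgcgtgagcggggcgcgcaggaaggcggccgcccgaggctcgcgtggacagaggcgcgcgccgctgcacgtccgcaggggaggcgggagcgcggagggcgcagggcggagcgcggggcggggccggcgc
In Hsp90b1 the first element reads along the gene and the second lies on the opposite strand, so that its letters appear there as CGTGG and ATTGG.

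The ERSE sites of the other 7 genes are shown along the element's own strand, with the fixed letters in capitals. Counted from the start, with -1 the base before it, they began between -162 (Calr) and -44 (Syvn1), and those of Calr, Creld2 and Derl3 lay on the strand opposite to the gene. The Hspa5 site, which begins at -65, is repeated first for comparison.
Hspa5: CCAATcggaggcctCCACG
Calr: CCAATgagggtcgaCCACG
Canx: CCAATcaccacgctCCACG
Dnajc3: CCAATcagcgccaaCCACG
Creld2: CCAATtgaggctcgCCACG
Pdia6: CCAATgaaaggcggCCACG
Syvn1: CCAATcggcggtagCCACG
Derl3: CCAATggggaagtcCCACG

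**Figure D1:**
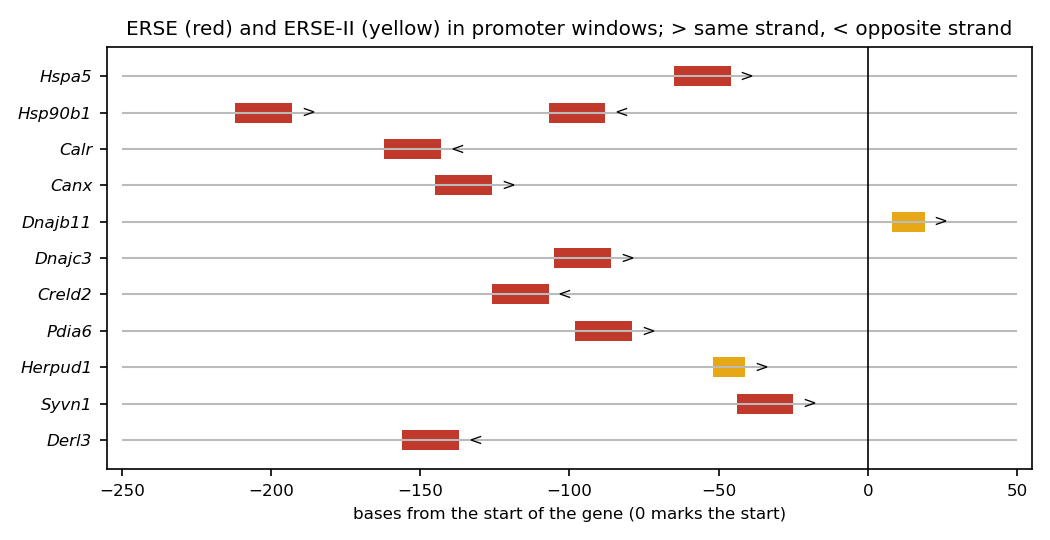
Position of ERSE (red) and ERSE-II (yellow) in the promoter windows of the 11 genes that held one, in bases from the start of the gene on the x axis. Each grey line is 1 window, and the sites of 10 genes lie before the start while the ERSE-II of Dnajb11 begins 8 bases after it.

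The first comparison, TAC-luciferase against sham-luciferase, asks what pressure load changed in hearts with the control cargo. Of the 11 ER chaperones and their helpers 6 fell, and none of the 5 genes grouped as sensors passed. Of the 31 genes 14 were called, where 26.1% of all genes tested were called in either direction. Of them 11 fell, where 14.9% of all genes tested were called lower, and 3 rose, where 11.2% were called higher. Every TAC-luciferase heart lay below every sham heart for 12 of the 31 genes (21.6% of all genes tested) and above for 3 (15.9%). The count of falls depended on single arrays, with 4 without TAC-luciferase heart 2, 7 without sham heart 1 and 6 without sham heart 2 or 3. Over all genes tested, 11.1% were called lower without TAC-luciferase heart 2. Without sham hearts 1, 2 and 3 in turn, 10.9%, 13.5% and 12.7% were. The median log2 fold change was -0.12, against -0.01 for all genes tested. The 31 genes were chosen with earlier results of these data known, so these shares are a description and carry no test of the list. In whole hearts, fewer cells of a type and less RNA per cell cannot be told apart.

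**Figure D2:**
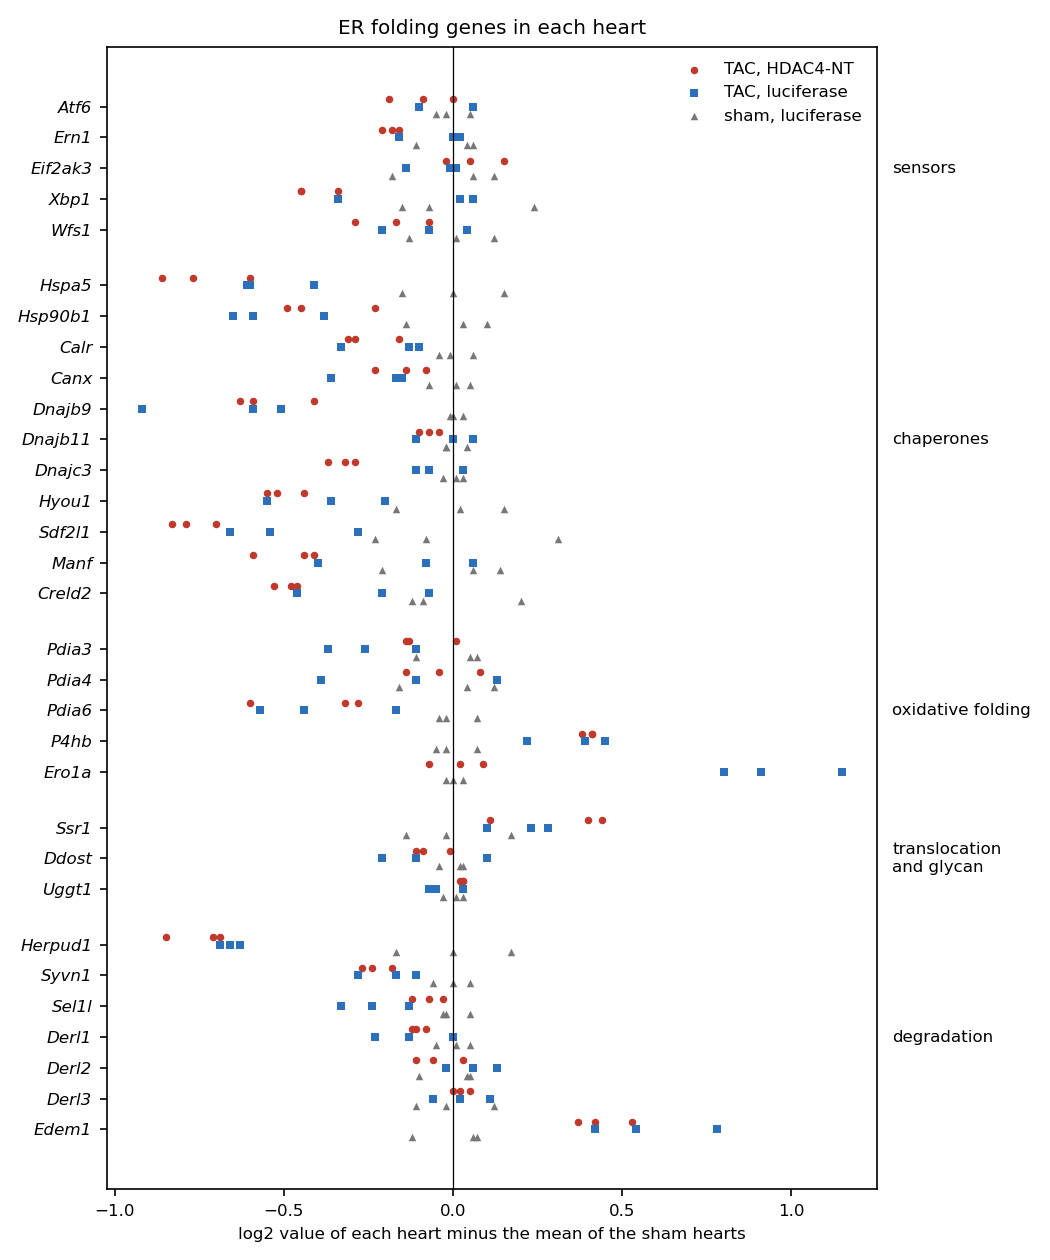
Each heart's log2 value minus the mean of the 3 sham hearts (x axis) for the 31 measured genes, grouped by role. Most chaperone points and all of Herpud1 lie left of 0 in both TAC groups, P4hb and Edem1 lie right of 0 in both, and Ero1a lies far right of 0 in the TAC-luciferase hearts and near 0 in the TAC-HDAC4-NT hearts.

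The 5 genes grouped as sensors are the sensors Atf6, Ern1 and Eif2ak3, with Xbp1 and Wfs1. None of them changed in TAC-luciferase hearts, with log2 fold changes between -0.09 and -0.04. Atf6, a membrane-bound transcription factor released by proteolysis, lay at 9.58, 9.42 and 9.42 in the TAC-luciferase hearts and at 9.57, 9.50 and 9.47 in the sham hearts. Ern1, the kinase and endoribonuclease that splices Xbp1 mRNA, lay at 6.65, 6.83 and 6.81, against 6.70, 6.87 and 6.85 in sham. Eif2ak3, the kinase that phosphorylates the translation factor eIF2α, lay at 6.08, 5.95 and 6.10, against 6.21, 5.91 and 6.15. For all 3 the groups overlapped, and the 95% intervals of the log2 difference ran from -0.20 to 0.11, from -0.19 to 0.10 and from -0.24 to 0.14. Xbp1, the transcription factor activated by that splicing, had 9.90, 10.26 and 10.30 in the TAC-luciferase hearts and 10.09, 10.17 and 10.48 in sham (log2 fold change -0.09, SE 0.12, adjusted p 0.661). These sensors act through splicing, cleavage and phosphorylation, which the array does not read, so the values give only the amount of mRNA. Wfs1, a membrane protein of the ER that restrains Atf6 signalling, had a log2 fold change of -0.08 (SE 0.09, adjusted p 0.583).

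The chaperones showed the largest share of falls, 6 of 11. Hspa5 (BiP, gene ID 14828), the Hsp70 of the ER and the protein that holds the 3 sensors inactive, lay at 10.68, 10.67 and 10.87 in the TAC-luciferase hearts and at 11.13, 11.28 and 11.43 in sham. Every TAC-luciferase heart was below every sham heart, a 1.45-fold fall (log2 fold change -0.53, SE 0.09, adjusted p 0.00334). Hsp90b1 (Grp94, gene ID 22027), the Hsp90 of the ER, had 9.99, 10.05 and 10.26, against 10.67, 10.50 and 10.74 in sham. Hsp90b1 fell by 0.54 (SE 0.10, adjusted p 0.00361). Dnajb9 (ERdj4), a co-chaperone that directs misfolded proteins to ERAD and represses Ern1, had 8.94, 8.61 and 9.02, against 9.53, 9.56 and 9.52 in sham. Its fall of 0.68 (SE 0.10, adjusted p 0.00143) was the largest among the 31 genes, and the sham hearts lay within 0.04 of each other. These 3 calls were kept without each of the 9 arrays in turn.

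Smaller falls among the chaperones rested more on single hearts. Hyou1 (Grp170), a nucleotide exchange factor for Hspa5, had 6.95, 6.76 and 7.11 in the TAC-luciferase hearts and 7.14, 7.33 and 7.46 in sham, and fell by 0.37 (SE 0.10, adjusted p 0.0247). Sdf2l1, a partner of the co-chaperone Dnajb11, had 6.76, 6.64 and 7.02, against 7.07, 7.22 and 7.61, and fell by 0.49 (SE 0.14, adjusted p 0.0271). Canx (calnexin), a membrane lectin that holds glycoproteins, had 10.98, 10.79 and 11.00, against 11.16, 11.20 and 11.08, and fell by 0.23 (SE 0.07, adjusted p 0.0408). The groups did not overlap for any of these 3 genes, but each gap was small beside the spread within the groups. Hyou1 lost its call without TAC-luciferase heart 2, sham heart 2 or sham heart 3 (adjusted p up to 0.08), Sdf2l1 without TAC-luciferase heart 1 or 2 or sham heart 3 (up to 0.0899), and Canx without TAC-HDAC4-NT heart 1, TAC-luciferase heart 2 or sham heart 1 or 2 (up to 0.127). With only the 6 arrays compared all 3 lost their calls, as Sdf2l1 and Canx did with no filter on low values and Canx under cyclic loess scaling (highest adjusted p over these settings 0.0578, 0.0618 and 0.0949 for Hyou1, Sdf2l1 and Canx). Calr (calreticulin), the soluble lectin beside calnexin, did not pass, at 11.28, 11.05 and 11.25 against 11.44, 11.34 and 11.37 (log2 fold change -0.19, SE 0.07, adjusted p 0.0755), though it passed in a fit with a random block for the first number of the code in each sample's label, whose meaning is not given (adjusted p 0.0414). Dnajb11, Dnajc3, Manf and Creld2 had log2 fold changes from -0.24 to -0.02 and did not pass either.

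The disulfide bond enzymes divided. Ero1a (gene ID 50527), the oxidase that recharges protein disulfide isomerase and is also known to respond to hypoxia, had 8.11, 8.46 and 8.22 in the TAC-luciferase hearts and 7.29, 7.34 and 7.31 in sham. It rose 1.93-fold (log2 fold change 0.95, SE 0.09, adjusted p 0.000104), with a gap between the groups far wider than either group's spread. P4hb (gene ID 18453), protein disulfide isomerase itself and a subunit of the collagen prolyl 4-hydroxylase, had 9.68, 9.62 and 9.45, against 9.21, 9.18 and 9.30, and rose by 0.35 (SE 0.06, adjusted p 0.00404). Pdia6, an isomerase that also acts on Ern1, had 7.01, 6.88 and 7.28, against 7.41, 7.43 and 7.52, and fell by 0.40 (SE 0.11, adjusted p 0.0269). Pdia3 (ERp57), which works with calnexin and calreticulin, had 8.99, 8.88 and 9.14, against 9.32, 9.30 and 9.14, and fell by 0.25 (SE 0.08, adjusted p 0.0462). The highest TAC-luciferase heart and the lowest sham heart met at 9.14 for Pdia3. Pdia6 lost its call without TAC-luciferase heart 1 or 2 or any 1 sham heart (adjusted p up to 0.0884) and with no filter or with array weights (up to 0.0554), and Pdia3 without any 1 of 6 arrays, TAC-HDAC4-NT hearts 1 and 3, TAC-luciferase hearts 1 and 2 and sham hearts 1 and 2 (up to 0.149), and under cyclic loess scaling among others (highest adjusted p over the other settings 0.0851). Pdia4 did not pass (log2 fold change -0.12, SE 0.13). The calls of Ero1a and P4hb were kept without each array in turn.

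Among the degradation genes Herpud1 fell most. Herpud1 (gene ID 64209), a membrane protein that assembles the Hrd1 complex, had 9.52, 9.49 and 9.46 in the TAC-luciferase hearts and 9.98, 10.15 and 10.32 in sham. The fall was 1.58-fold (log2 fold change -0.66, SE 0.08, adjusted p 0.000528) and held without each array in turn. Edem1 (gene ID 192193), a mannosidase-like protein that marks misfolded glycoproteins for removal, moved the other way, at 7.61, 7.49 and 7.85 against 6.95, 7.13 and 7.14. It rose by 0.57 (SE 0.09, adjusted p 0.00229), also without each array in turn. The Hrd1 ubiquitin ligase Syvn1 and its partner Sel1l fell by 0.18 (SE 0.06, adjusted p 0.0432) and 0.24 (SE 0.06, adjusted p 0.0181). Syvn1 had 7.73, 7.62 and 7.79, against 7.84, 7.90 and 7.95. Syvn1 lost its call without any 1 of 8 arrays, TAC-luciferase heart 3 being the exception (adjusted p up to 0.145). It kept the call in 3 of the 9 other fits and lost it under cyclic loess scaling among others (highest adjusted p over the other settings 0.0998). Sel1l had 8.26, 8.17 and 8.37, against 8.47, 8.48 and 8.55, and lost its call without TAC-luciferase heart 2 or sham heart 3 (adjusted p up to 0.0645). Derl1, Derl2 and Derl3, membrane proteins of the retrotranslocation machinery, lay between -0.12 and 0.06 and did not pass, though Derl1 passed without TAC-luciferase heart 1 (adjusted p 0.0452). Neither did the genes of entry and glycan control, Ssr1 at 0.20 (SE 0.10), Ddost at -0.08 (SE 0.07) and Uggt1 at -0.03 (SE 0.05). Ssr1 belongs to the translocon-associated complex, Ddost to the oligosaccharyltransferase, and Uggt1 re-glucosylates misfolded glycoproteins so that calnexin holds them again.

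**Figure D3:**
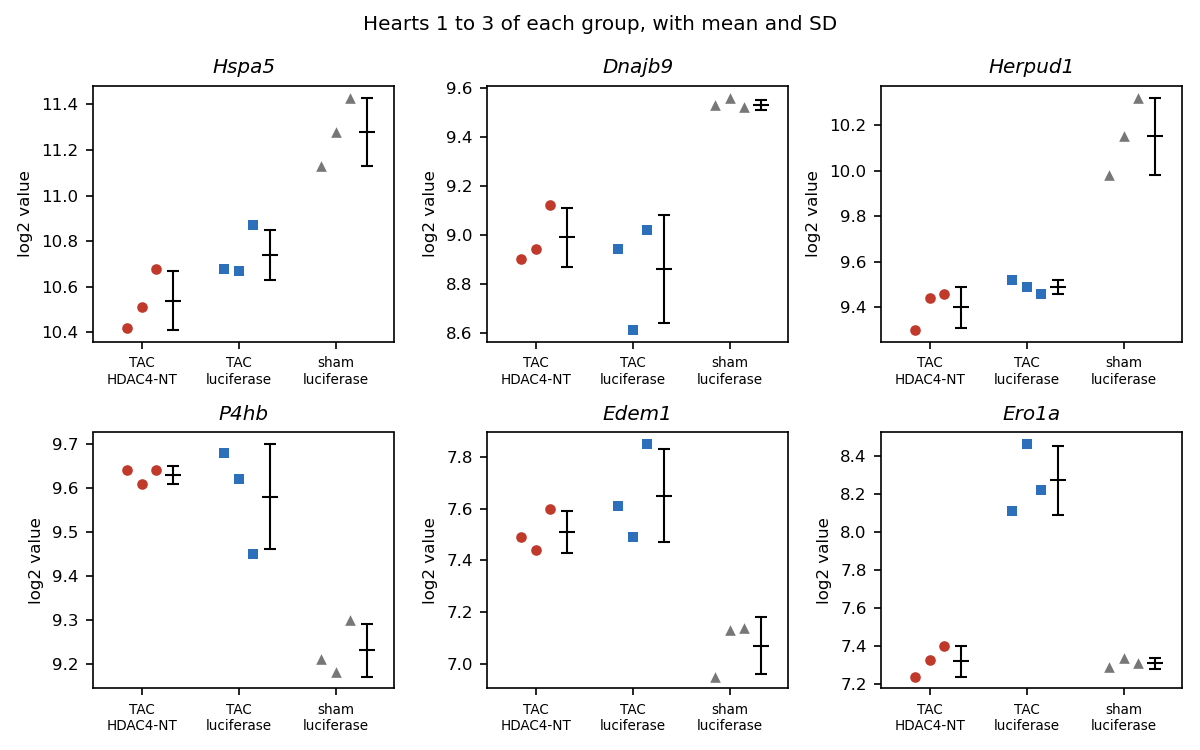
Log2 values of hearts 1 to 3 of each group (points, left to right) for 6 genes, with the group mean and SD beside them; the y axes do not start at 0 and differ between panels. Hspa5, Dnajb9 and Herpud1 lie lower in both TAC groups than in sham, P4hb and Edem1 lie higher in both, and Ero1a is higher in the TAC-luciferase hearts than in either other group.

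The second comparison, TAC-HDAC4-NT against sham-luciferase, asks which of these differences were present in loaded hearts that carried the HDAC4 fragment. It shares the sham arrays with the first, so the 2 sets of differences are not independent. Of the 31 genes 15 were called, where 22.8% of all genes tested were called in either direction. Of them 13 fell, where 12.3% of all genes tested were called lower, and 2 rose, where 10.5% were called higher. The median log2 fold change was -0.15, against -0.01 for all genes. Of the 11 chaperones 9 fell, and for all 11 every TAC-HDAC4-NT heart lay below every sham heart, where the groups were separated in that direction for 21.5% of all genes tested. Over the 31 genes 17 were separated lower and 2 higher (18.3% of all genes). The count of falls was 8 without TAC-HDAC4-NT heart 1 or 3 and 7 without sham heart 3. In these fits 8.12%, 8.83% and 10.2% of all genes tested were called lower. Called against sham in both comparisons were 10 genes, Hspa5, Hsp90b1, Dnajb9, Hyou1, Sdf2l1, Pdia6, Herpud1 and Syvn1 lower and P4hb and Edem1 higher. The share of all genes tested that was called in both was not counted. With shared sham arrays, this overlap is therefore a list of genes and not a result about the 31.

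The largest falls were in Sdf2l1, Herpud1 and Hspa5. Sdf2l1 had 6.47, 6.60 and 6.51 in the TAC-HDAC4-NT hearts and 7.07, 7.22 and 7.61 in sham, a 1.71-fold fall (log2 fold change -0.77, SE 0.14, adjusted p 0.00373). Herpud1 had 9.30, 9.44 and 9.46, against 9.98, 10.15 and 10.32, and fell by 0.75 (SE 0.08, adjusted p 0.000302). Hspa5 had 10.42, 10.51 and 10.68, against 11.13, 11.28 and 11.43, and fell by 0.74 (SE 0.09, adjusted p 0.000654). In each of the 3 the highest TAC-HDAC4-NT heart lay at least 0.45 below the lowest sham heart. Dnajb9 had 8.90, 8.94 and 9.12, against 9.53, 9.56 and 9.52, and fell by 0.55 (SE 0.10, adjusted p 0.00466). Hyou1 had 6.76, 6.87 and 6.79, against 7.14, 7.33 and 7.46, and fell by 0.50 (SE 0.10, adjusted p 0.00675). All 5 calls were kept without each array in turn.

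Dnajc3, Creld2, Manf and Calr, which did not pass in TAC-luciferase hearts, passed here, which by itself does not show that the 2 TAC groups differ. Dnajc3 (p58IPK), a co-chaperone and inhibitor of Eif2ak3, had 7.12, 7.20 and 7.17 in the TAC-HDAC4-NT hearts and 7.46, 7.52 and 7.50 in sham, and fell by 0.33 (SE 0.05, adjusted p 0.00153). Creld2, an ER protein with disulfide isomerase activity, had 7.03, 7.08 and 7.10, against 7.47, 7.44 and 7.76, and fell by 0.49 (SE 0.11, adjusted p 0.0114). Both calls were kept without each array in turn. Manf, a secreted ER protein that binds Hspa5, had 7.01, 7.19 and 7.16, against 7.39, 7.74 and 7.66, and fell by 0.48 (SE 0.13, adjusted p 0.0239). Calr had 11.09, 11.22 and 11.07, against 11.44, 11.34 and 11.37, and fell by 0.25 (SE 0.07, adjusted p 0.0273). Hsp90b1, called in both comparisons, had 10.15, 10.19 and 10.41, against 10.67, 10.50 and 10.74, and fell by 0.38 (SE 0.10, adjusted p 0.0195). Manf lost its call without TAC-HDAC4-NT heart 1 or 3 or sham heart 2 or 3 (adjusted p up to 0.0891), Calr without TAC-HDAC4-NT heart 1 or 3 or sham heart 1 or 3 (up to 0.0972), and Hsp90b1 without TAC-HDAC4-NT heart 1 or 2 or sham heart 1 or 3 (up to 0.078). Manf also lost it with no filter on low values (adjusted p 0.0534) and Calr with the replicate number as a block (adjusted p 0.0504). Canx and Dnajb11 stood at -0.15 (SE 0.07) and -0.07 (SE 0.05) and did not pass.

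Among the genes grouped as sensors, Xbp1, which is not itself a sensor, was the 1 called lower with HDAC4-NT. It had 9.79, 9.79 and 9.90 in the TAC-HDAC4-NT hearts and 10.09, 10.17 and 10.48 in sham, with no overlap, and fell by 0.42 (SE 0.12, adjusted p 0.0395). The call was lost without any 1 TAC-HDAC4-NT heart or without sham heart 2 or 3 (adjusted p up to 0.119), and under cyclic loess scaling, no filter on low values or the atrial covariate (highest adjusted p over the other settings 0.0798). Ern1 had 6.60, 6.63 and 6.65, against 6.70, 6.87 and 6.85, also without overlap, and did not pass (log2 fold change -0.18, SE 0.06, adjusted p 0.0757). It passed without TAC-luciferase heart 1 or sham heart 1, with adjusted p-values from 0.0377, and with array weights or either block (from 0.0345). Atf6 had 9.33, 9.43 and 9.52, against 9.57, 9.50 and 9.47 (log2 fold change -0.09, SE 0.07), and Eif2ak3 had 6.14, 6.07 and 6.24, against 6.21, 5.91 and 6.15 (0.06, SE 0.08). For both genes the groups overlapped. Wfs1 stood at -0.18 (SE 0.09, adjusted p 0.198), and at an adjusted p of 0.0477 with the atrial covariate.

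Of the disulfide bond enzymes, P4hb rose and Pdia6 fell, as they did in TAC-luciferase hearts. P4hb had 9.64, 9.61 and 9.64 in the TAC-HDAC4-NT hearts and 9.21, 9.18 and 9.30 in sham (log2 fold change 0.40, SE 0.06, adjusted p 0.00222). Pdia6 had 6.85, 7.17 and 7.13, against 7.41, 7.43 and 7.52, and fell by 0.40 (SE 0.11, adjusted p 0.0281), a call lost without TAC-HDAC4-NT heart 1 or 3 or any 1 sham heart (adjusted p up to 0.099) and with no filter (0.0583). Ero1a had 7.24, 7.33 and 7.40, against 7.29, 7.34 and 7.31. Its log2 fold change against sham was 0.01, with a 95% interval from -0.18 to 0.20. In the degradation group Edem1 had 7.49, 7.44 and 7.60, against 6.95, 7.13 and 7.14, and rose by 0.44 (SE 0.09, adjusted p 0.00962), while Syvn1 had 7.72, 7.63 and 7.66, against 7.84, 7.90 and 7.95, and fell by 0.23 (SE 0.06, adjusted p 0.0186). P4hb and Edem1 kept their calls without each array in turn, and Syvn1 lost its call without TAC-HDAC4-NT heart 2 or 3 or sham heart 3 (adjusted p up to 0.0663). Sel1l and the 3 derlins lay between -0.10 and 0.02 and did not pass. Ssr1, at 0.31 (SE 0.10, adjusted p 0.058), did not pass either, though it passed without TAC-HDAC4-NT heart 3 or sham heart 2 (adjusted p from 0.0199) and under cyclic loess scaling, a stricter filter, array weights or the random block (from 0.0336).

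The genes with an ERSE were set beside those without, as a description. Most genes with an ERSE are chaperones by role, so the element and the role cannot be told apart. Of the 9 genes with an ERSE, 5 fell in TAC-luciferase hearts against sham (Hspa5, Hsp90b1, Canx, Pdia6 and Syvn1), where 14.9% of all genes tested were called lower. With HDAC4-NT 7 fell against sham (Hspa5, Hsp90b1, Calr, Creld2, Dnajc3, Pdia6 and Syvn1), where 12.3% were. Canx, Pdia6 and Syvn1 in the first comparison, and Hsp90b1, Calr, Pdia6 and Syvn1 in the second, lose these calls without single arrays (adjusted p up to 0.145 and 0.099). None of the 9 rose in either comparison, and their median log2 fold changes were -0.23 and -0.33. Derl3, the 1 that passed in neither, had an ERSE like the others and low values throughout, between 5.83 and 6.06. The 16 measured genes whose window held neither ERSE nor ERSE-II had medians of -0.07 and -0.06, with 4 lower and 3 higher in the first comparison and 3 lower and 2 higher in the second. All of the genes that rose, Ero1a, P4hb and Edem1, were among these 16. So were Dnajb9, Pdia3, Sdf2l1 and Sel1l, which fell in the first comparison, and Dnajb9, Sdf2l1 and Xbp1, which fell in the second. They include the largest fall among the 31 genes in each comparison, Dnajb9 in the first (-0.68) and Sdf2l1 in the second (-0.77). Herpud1 fell and Dnajb11 did not pass, and each held an ERSE-II. Outside the 31 genes, 6 tested genes held an exact ERSE, of which 2 fell in TAC-luciferase hearts (Acacb and Alg12) and 1 in TAC-HDAC4-NT hearts (Acacb), with medians of -0.12 and -0.07.

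The third comparison, TAC-HDAC4-NT against TAC-luciferase, asks what the fragment changed in loaded hearts. Ero1a was the 1 gene of the 31 that differed, where 0.254% of all genes tested were called in either direction. It had 7.24, 7.33 and 7.40 in the TAC-HDAC4-NT hearts and 8.11, 8.46 and 8.22 in the TAC-luciferase hearts. The gap between the groups was wider than the spread within either, and the HDAC4-NT hearts had 1.92-fold less Ero1a (a difference of -0.94, SE 0.09, adjusted p 0.00667). The sham hearts had 7.29, 7.34 and 7.31. Without TAC-luciferase heart 1 the log2 fold change was -1.02 (adjusted p 0.000359). The call was lost without TAC-HDAC4-NT heart 1 or 2 (adjusted p up to 0.0622) and when only the 6 arrays of these groups were fitted (adjusted p 0.0747). Over all genes tested, 1 gene was called without TAC-HDAC4-NT heart 1, 1 without heart 2 and 0 with the 6 arrays. With each array left out in turn, the log2 fold change of Ero1a lay between -1.02 and -0.84.

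The other 30 genes did not pass, and 7 of the 31 had groups that did not overlap, 6 lower and 1 higher, where 8.8% and 11.6% of all genes tested were separated in those directions. Beside Ero1a, the separated genes lower with HDAC4-NT were Dnajc3, Manf, Sdf2l1, Creld2 and Ern1. Dnajc3 came closest to the threshold, at 7.12, 7.20 and 7.17 in the TAC-HDAC4-NT hearts and 7.42, 7.38 and 7.52 in the TAC-luciferase hearts (log2 fold change -0.28, SE 0.05, adjusted p 0.0568). Manf stood at -0.34 (95% interval -0.63 to -0.06, adjusted p 0.257), Sdf2l1 at -0.28 (-0.59 to 0.03, adjusted p 0.406), Creld2 at -0.25 (-0.49 to 0.00, adjusted p 0.345) and Ern1 at -0.14 (-0.28 to 0.01, adjusted p 0.378). Sel1l was the separated gene that lay higher, at 0.16 (0.02 to 0.29, adjusted p 0.265). For these 6 genes the differences were no larger than 0.34 on the log2 scale and none passed.

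TAC-luciferase heart 1 decided the side of the threshold for 2 further genes. Xbp1 had 9.79, 9.79 and 9.90 in the TAC-HDAC4-NT hearts and 9.90, 10.26 and 10.30 in the TAC-luciferase hearts, so that heart 1 lay beside the HDAC4-NT hearts and hearts 2 and 3 above them. With all arrays it stood at -0.32 (SE 0.12, adjusted p 0.275), and without heart 1 at -0.45 (adjusted p 0.047). Dnajc3 passed without heart 1 at -0.29 (adjusted p 0.0251). Both also passed with array weights, and Dnajc3 with the random block (adjusted p from 0.0456 and 0.0123). Over all genes tested, calls came to 3.15% lower without heart 1, against 0.111% with all arrays, so the members' added calls came with added calls across the table.

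For several genes called in both comparisons against sham, the TAC groups overlapped. Hspa5 stood at -0.20 between them (95% interval -0.42 to 0.01), Herpud1 at -0.09 (-0.27 to 0.10), Hsp90b1 at 0.16 (-0.06 to 0.37) and Dnajb9 at 0.13 (-0.10 to 0.36). P4hb and Edem1 stood at 0.05 (-0.09 to 0.20) and -0.14 (-0.35 to 0.08). These 6 intervals reach from -0.42 to 0.37 on the log2 scale, so they do not show that the groups are equal. Hspa5 ran in the order TAC-HDAC4-NT, TAC-luciferase, sham, with means of 10.54 ± 0.13, 10.74 ± 0.11 and 11.28 ± 0.15 (SD, n = 3 each), and the first 2 of these overlapped.

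**Figure D4:**
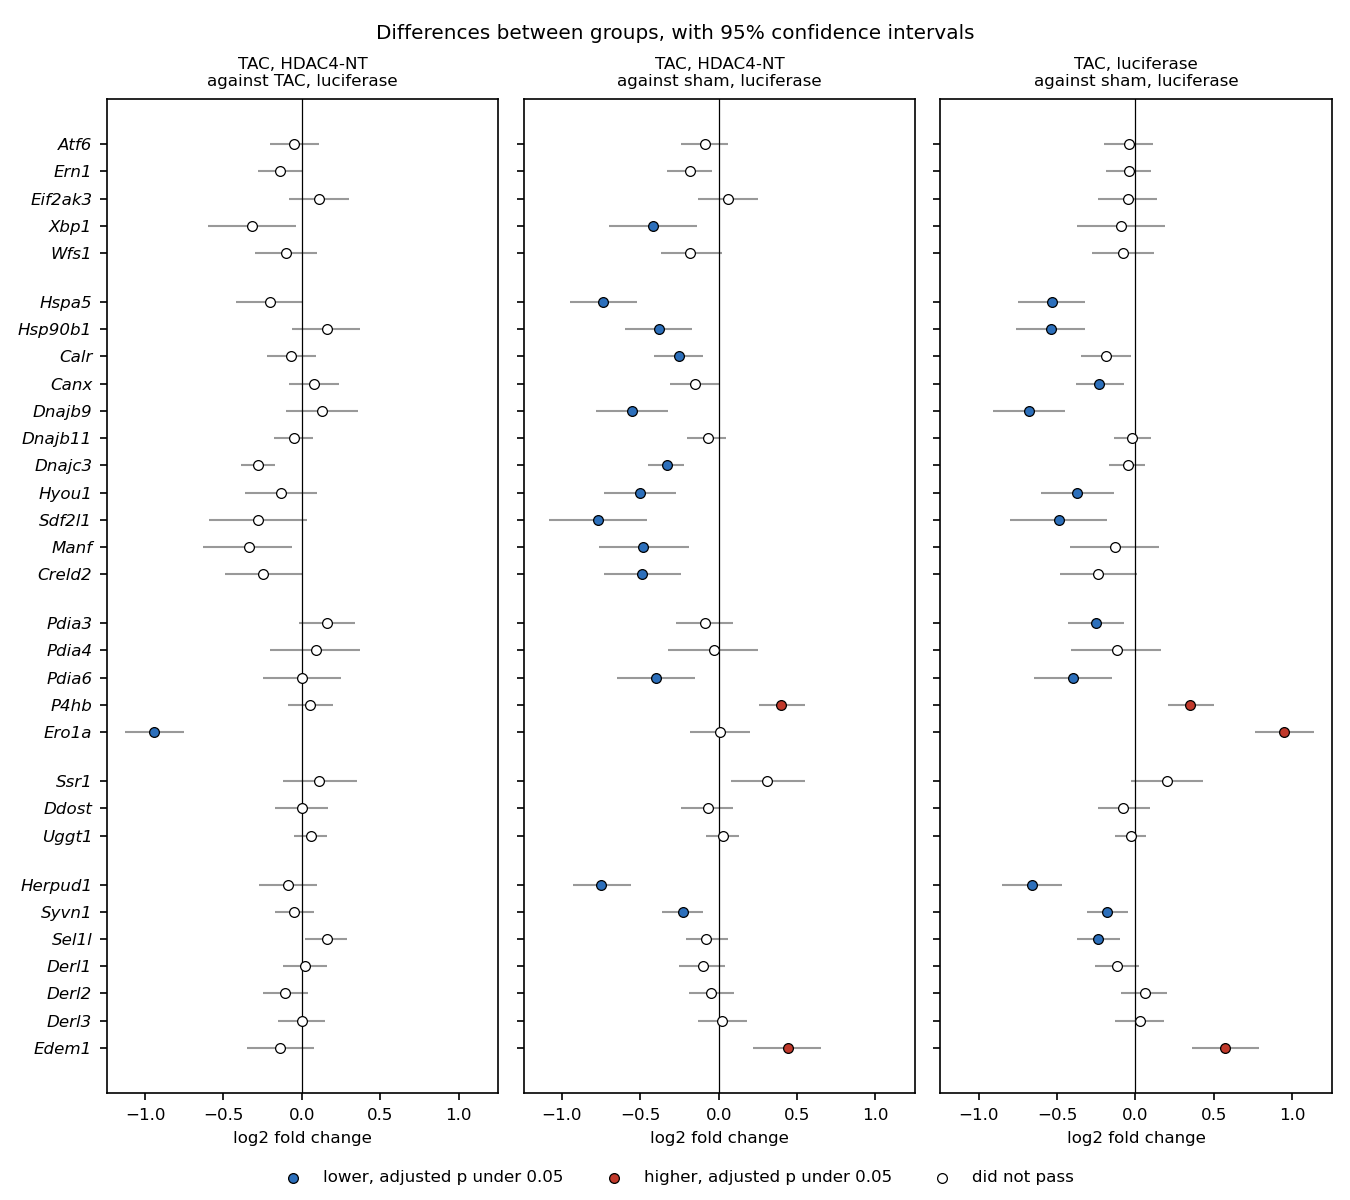
Log2 fold changes (points) with 95% confidence intervals (lines) for the 31 genes in the 3 comparisons, filled where the adjusted p was under 0.05. Between the TAC groups Ero1a alone is filled, while against sham 15 genes are filled with HDAC4-NT and 14 with luciferase.

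Within each group, some hearts were low or high for many of the 31 genes. TAC-luciferase heart 2 was the lowest of its group for 19 of the 31 genes and heart 3 the highest for 19, where these hearts were lowest and highest for 31.5% and 30.1% of all genes tested. In the sham group heart 1 was lowest for 18 of the 31 (32.3% of all genes) and heart 3 highest for 16 (30.9%). In the TAC-HDAC4-NT group heart 1 was lowest for 16 (28.7% of all genes). The mean of the 11 chaperones was 8.42, 8.50 and 8.51 in the TAC-HDAC4-NT hearts, 8.59, 8.45 and 8.73 in the TAC-luciferase hearts and 8.83, 8.89 and 8.99 in the sham hearts, so even the lowest sham heart lay above every TAC heart. TAC-luciferase heart 3, with the most chaperone mRNA of the TAC hearts, also had the highest mean of atrial genes. With the mean of 4 atrial genes as a covariate 10 genes were lower and 3 higher in TAC-luciferase hearts against sham. Of all genes tested 14% were called lower in that fit.

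The rest of the pathway was described through 6 lists, in which few genes fell. Against sham, 11.2% of all genes tested were called higher and 14.9% lower in TAC-luciferase hearts, and 10.5% and 12.3% in TAC-HDAC4-NT hearts. In the integrated stress response list, which covers the arm below Eif2ak3, 2 of 7 tested genes rose in TAC-luciferase hearts and none fell. Atf4, its central transcription factor, had 7.12, 7.27 and 7.28 in the TAC-HDAC4-NT hearts, 7.53, 7.53 and 7.53 in the TAC-luciferase hearts and 7.05, 7.07 and 7.06 in sham. Against sham it rose by 0.47 in TAC-luciferase hearts (SE 0.05, adjusted p 0.000276), and in TAC-HDAC4-NT hearts it stood at 0.16 (adjusted p 0.0565). Between the TAC groups it was separated but did not pass (-0.31, SE 0.05, adjusted p 0.0533). Ppp1r15a (Gadd34), which restores translation, had 6.59, 6.66 and 6.68 in the TAC-HDAC4-NT hearts, 6.93, 7.29 and 7.16 in the TAC-luciferase hearts and 6.57, 6.54 and 6.37 in sham. It rose by 0.63 in TAC-luciferase hearts against sham (SE 0.09, adjusted p 0.00102) and stood at -0.48 between the TAC groups (adjusted p 0.0602). Without TAC-luciferase heart 1 both genes passed between the TAC groups (adjusted p 0.0232 and 0.00365), and without TAC-HDAC4-NT heart 1 Atf4 passed against sham (adjusted p 0.0228). Ddit3 (CHOP), Trib3 and Asns, known targets of Atf4, stood at 0.12, 0.08 and 0.16 in TAC-luciferase hearts and did not pass, though Asns passed without sham heart 3 (adjusted p 0.0305). Their values were low, with means of 6.18, 6.05 and 6.37 in the TAC-luciferase hearts. RMA understates fold changes at low values.

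Among 7 other transducers tested, Creb3l2 and Creb3 rose in both TAC groups. Both encode membrane-bound factors of the same build as Atf6. Over all genes tested 10.5% were called higher with HDAC4-NT and 11.2% with luciferase. Creb3l2 had 9.02, 8.95 and 8.94 in the TAC-HDAC4-NT hearts, 8.99, 9.12 and 9.14 in the TAC-luciferase hearts and 7.86, 7.96 and 8.23 in sham. It rose by 0.96 with HDAC4-NT (SE 0.09, adjusted p 0.000122) and by 1.07 with luciferase (SE 0.09, adjusted p 6.61e-05). Creb3 rose by 0.61 (SE 0.09) and 0.69 (SE 0.09). Atf6b, the relative of Atf6, stood at -0.09 in both.

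The list of enzymes that fold and modify collagen held the most rises. Of its 12 tested genes 8 rose in TAC-HDAC4-NT hearts (10.5% of all genes tested were called higher) and 7 in TAC-luciferase hearts (11.2%) against sham, and none fell. The list's median log2 fold changes were 0.28 and 0.27. Rcn3, a calcium-binding protein of the ER lumen, rose by 0.99 (SE 0.08) in TAC-HDAC4-NT hearts and 0.90 (SE 0.08) in TAC-luciferase hearts. Plod2, a lysyl hydroxylase, rose by 0.64 (SE 0.17, adjusted p 0.0226) and 1.14 (SE 0.17, adjusted p 0.00123), and P4ha1, the catalytic partner of P4hb in prolyl hydroxylation, by 0.64 (SE 0.18, adjusted p 0.0331) and 0.67 (SE 0.18, adjusted p 0.0254). With HDAC4-NT, Plod2 lost its call without any 1 of TAC-HDAC4-NT hearts 1 and 2 and the 3 sham hearts (adjusted p up to 0.0822), and P4ha1 without any 1 TAC-HDAC4-NT heart or sham heart 1 or 2 (up to 0.105). With luciferase P4ha1 lost it without TAC-luciferase heart 3 or sham heart 1 (up to 0.0869). Serpinh1 (Hsp47), the collagen chaperone, did not pass, at 0.01 (SE 0.11) and 0.13 (SE 0.11). Fibroblast markers moved the same way as P4hb, Edem1 and this list. Of the 6 markers, 5 rose in each TAC group against sham, read against the same shares of all genes, their mean being 9.24 to 9.39 in the TAC-HDAC4-NT hearts, 9.11 to 9.25 in the TAC-luciferase hearts and 8.18 to 8.31 in sham. Their part in the rise of P4hb and Edem1 was not tested. Of 6 macrophage markers, with a mean of 7.61 to 7.69 in the TAC-HDAC4-NT hearts, 7.58 to 7.76 in the TAC-luciferase hearts and 7.09 to 7.29 in sham, 5 rose with HDAC4-NT and 3 with luciferase, and of 6 endothelial markers 2 rose with HDAC4-NT, while 1 rose and 2 fell with luciferase (14.9% of all genes were called lower there). Of the plasma and B cell markers, rich in ER, 1 of 5 passed the filter, Ighm, and it did not pass the test (0.68 and -0.19 against sham), though with HDAC4-NT it passed without TAC-luciferase heart 1 (adjusted p 0.0434). The mean of the 5 was 5.77 to 5.83 in the TAC-HDAC4-NT hearts, 5.54 to 5.76 in the TAC-luciferase hearts and 5.59 to 5.76 in sham.

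In the remaining lists, the translocation and glycosylation genes had 18.8% called higher and 6.25% lower with luciferase, and 12.5% and 0% with HDAC4-NT. The other folding enzymes had 5.56% and 5.56% with luciferase, and 16.7% and 5.56% with HDAC4-NT. The other ERAD genes had 6.67% called higher in each comparison and none lower. Over all genes tested 11.2% were called higher and 14.9% lower with luciferase, and 10.5% and 12.3% with HDAC4-NT. Of 18 other folding enzymes, Txndc5 rose by 0.40 (SE 0.06) with HDAC4-NT and 0.30 (SE 0.06) with luciferase. Cdnf, the relative of Manf, fell by 0.57 (SE 0.08) and 0.65 (SE 0.08), at 6.82, 6.78 and 6.78 in the TAC-HDAC4-NT hearts, 6.60, 6.83 and 6.70 in the TAC-luciferase hearts and 7.50, 7.39 and 7.19 in sham. With HDAC4-NT, Ppib and Dnajc10 also rose, by 0.37 and 0.19, and lost their calls without any 1 of 4 and 6 arrays, TAC-HDAC4-NT hearts 1 and 2 and sham heart 3 for both (adjusted p up to 0.0911 and 0.117). Of 16 translocation and glycosylation genes, Spcs3 of the signal peptidase rose by 0.63 (SE 0.09) and 0.51 (SE 0.09) and Stt3a of the oligosaccharyltransferase by 0.40 (SE 0.08) and 0.32 (SE 0.08). Sec61a1, the channel subunit, rose by 0.28 and Rpn1 fell by 0.23 in TAC-luciferase hearts, and they lost their calls without any 1 of 5 and 8 arrays, the TAC-luciferase hearts and sham heart 1 for both (adjusted p up to 0.0905 and 0.0982). Of 15 other ERAD genes, Nploc4 rose by 0.19 with HDAC4-NT and Ube2g2 by 0.36 with luciferase, and lost their calls without any 1 of 6 and 4 arrays, TAC-luciferase heart 3 and sham heart 2 for both (adjusted p up to 0.169 and 0.0652). Between the TAC groups none of the 6 lists held a gene that passed with all arrays, and Atf4, Ppp1r15a, Plod2 and Fkbp14 passed without TAC-luciferase heart 1.

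**Figure D5:**
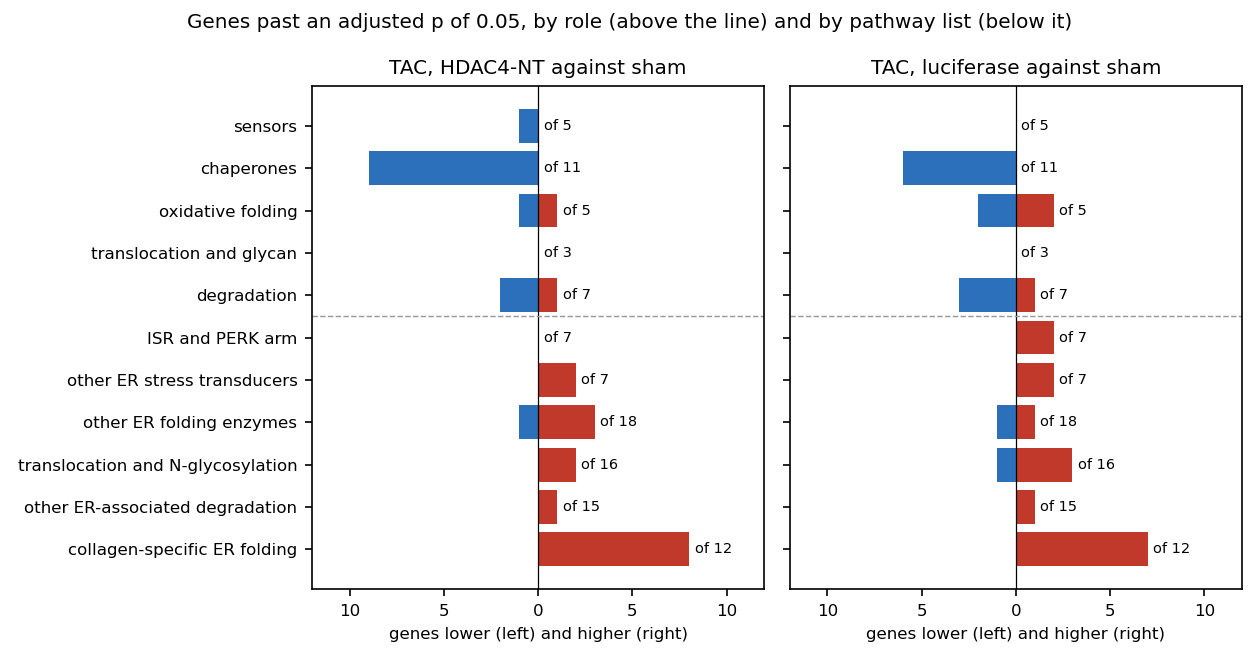
Number of genes that fell (left of 0) and rose (right of 0) against sham at an adjusted p under 0.05, by role of the 31 genes (above the dashed line) and by pathway list (below it), with the number tested beside each bar. Chaperones hold the most falls, 9 of 11 with HDAC4-NT and 6 of 11 with luciferase, and the collagen list holds the most rises, 8 and 7 of 12.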

How the data were processed

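Whole-heart RNA was labelled with biotin for Affymetrix arrays, as the labels' protocols state. The authors deposited log2 values from RMA, per the submitters' processing notes. Version, probe set design and build are not stated in the sources used here. All 9 columns held the same sorted values, as quantile normalization leaves them. RMA compresses low values, so their fold changes are understated. The files hold no detection call or depth. Precision is limited by the number of arrays.

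Of 21225 probe sets 20239 had 1 gene symbol in the platform annotation, 1 probe set per gene, and the other 986 had no single symbol there and were not tested. A gene was tested where 3 or more of the 9 arrays exceeded the 40th percentile of the whole table. The 9 arrays entered 1 linear model per gene (limma 3.58.1 under R 4.3.3, with lmFit, contrasts.fit and eBayes), and p-values were Benjamini-Hochberg adjusted over 12597 genes with a threshold of 0.05. The labels give 3 animals per group and a 2-number code per sample whose meaning they do not state, so hearts with the same first number may share a source, and p-values measure the spread between these samples. That first number was used as a random block in 1 alternative, and all sham hearts share it. The members, lists, motifs and settings were chosen with earlier results of these data known. All 32 members were to be given, heart by heart where they passed in any comparison and for Atf6, Ern1, Eif2ak3 and Xbp1, with up to 3 genes per direction from each list. The lists covered the integrated stress response, other transducers, folding enzymes, translocation and glycosylation, ERAD, collagen folding, and markers of cardiomyocytes, fibroblasts, macrophages, plasma and B cells, endothelium and atria. Replicate numbers did not pair the hearts. Deviations of same-numbered hearts correlated at -0.12 to 0.20. Promoter windows came from RefSeq (GRCm38.p6). The scripts were tested on simulated data. Figures used matplotlib 3.10.9 in Python 3.11.15.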

Additional observations from a re-analysis of the deposited data

How the results depend on the processing

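Of the 14 calls in TAC-luciferase against sham, 7 were kept without each array in turn and under all 9 other fits (Hspa5, Hsp90b1, Dnajb9, P4hb, Ero1a, Herpud1 and Edem1), as were 9 of 15 in TAC-HDAC4-NT against sham (Hspa5, Dnajb9, Dnajc3, Hyou1, Sdf2l1, Creld2, P4hb, Herpud1 and Edem1) and 0 of 1 between the TAC groups. No called gene changed its direction under any of these fits. Leaving out 1 array gave 7 to 14 genes in the first comparison (4 to 11 lower, 3 to 3 higher), 9 to 16 in the second (7 to 14 lower, 2 to 3 higher) and 0 to 3 between the TAC groups (0 to 3 lower). The lowest counts came without TAC-luciferase heart 2 (4 lower) and without sham heart 3 (7 lower) in the first 2, and the highest between the TAC groups without TAC-luciferase heart 1. Over all genes tested, 11.1%, 10.2% and 3.15% were called lower in these fits, against 14.9%, 12.3% and 0.111% with all arrays. With only the 6 arrays compared, the first comparison had 9 genes (6 lower) and the third 0, and with no filter the first had 7 lower. Over all genes, 11.5% were lower in the first with the 6 arrays, and none was called in the third. With no filter 8.95% were lower in the first. At an adjusted p under 0.01 the first had 7 genes (4 lower) and the second 8 (6 lower). With a minimum of 1.5-fold they had 3 (1 higher, 2 lower) and 3 (0 higher, 3 lower). Between the TAC groups array weights gave 3 (3 lower), the sample code as a random block 2 (2 lower) and an adjusted p under 0.10 gave 2 (2 lower). Fewer arrays, more genes tested or another threshold are what these settings consist of. For the weights and the random block the cause was not tested. Over all genes tested, 3.06% were called lower between the TAC groups with array weights and 0.58% with the random block, against 0.111%. With the replicate number as a block, 11, 15 and 1 genes passed in the 3 comparisons, against 14, 15 and 1, and a number shared by hearts does not pair them. Over all genes tested, 13.6%, 11.2% and 0.318% were called lower under that block. Over all genes, cyclic loess scaling turned the split between TAC-luciferase and sham to 1625 higher and 1521 lower, against 1405 and 1878. In TAC-HDAC4-NT against sham it gave 1457 higher and 1347 lower, against 1326 and 1546. Under it 8 members stayed lower and 3 higher in the first comparison.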
